A study of Mus musculus with 42 samples.

Results

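The genes described here are 10 genes of vascular signalling and of the blood vessel lining, measured by RNA sequencing in mouse tibialis anterior muscle at rest and after disuse. They were taken by name from the 13809 genes of the deposited table, and all 10 were found. They are Vegfa and Vegfb, which encode secreted vascular endothelial growth factors, Kdr and Flt1, which encode their receptors, Angpt1, which encodes the ligand angiopoietin 1, Tek and Tie1, which encode the receptor kinases of the angiopoietin system, Pecam1 and Cdh5, which encode adhesion molecules of endothelial cell contacts, and Nos3, which encodes the endothelial nitric oxide synthase.

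Blood vessels in skeletal muscle are lined by endothelial cells and kept in place by signals from the fibers around them. Muscle fibers make and secrete VEGF-A, which acts on the receptor KDR on endothelial cells, while FLT1 binds both VEGF-A and VEGF-B and holds VEGF-A away from KDR. Angiopoietin 1 from perivascular cells acts on TEK and keeps the lining quiescent, and TIE1 is a partner receptor of TEK. The capillary network of a muscle is known to expand with endurance activity and to thin with disuse, and the coactivator PGC-1α with its partner ERRα is a known inducer of Vegfa in muscle.

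The study sequenced 42 libraries of tibialis anterior muscle from male C57BL/6J mice aged 4 months, in 2 sets. Set 1 (22 libraries) held WT, Sesn1SkM-Tg and Sesn2SkM-Tg mice. Set 2 (20 libraries) held WT and Sesn1KO mice. Groups had 4 libraries each, except that immobilized WT and immobilized Sesn1SkM-Tg of set 1 had 3. The Sesn1SkM-Tg mice carried human Sesn1 driven by the muscle creatine kinase promoter, which is active in muscle fibers. The Sesn2SkM-Tg mice carried human Sesn2 under a tetracycline-regulated promoter with a transactivator driven by the same muscle promoter, and the Sesn1KO mice lacked Sesn1 throughout the body. For immobilization 1 hindlimb was splinted, for denervation (WT of set 2 only) a segment of the sciatic nerve was cut out, and basal mice underwent neither. Immobilization lasted 3 days, and the length of denervation for these libraries is not given in the sources used here. The 11 groups were compared only within a set, except where a difference between the sets is named.

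Values are the authors' normalized counts, a linear scale on which each library summed to between 722430 and 1276769. The lowest sums were those of denervated and of immobilized libraries. Replicate libraries correlated at r = 0.959 to 0.991 on the log2 scale across genes. A gene was called higher or lower when limma gave an adjusted p under 0.05 and a log2 fold change of at least 0.25 in size, with log2(value + 1) as the scale of every fold change below. The labels do not say that the replicates came from separate mice, so p-values measure the spread between these libraries. The transgenic labels were checked first. Sesn1 averaged 59.4 in basal Sesn1SkM-Tg and 18.5 in basal WT libraries, and Sesn2 10.8 in basal Sesn2SkM-Tg and 2.63 in basal WT libraries. In Sesn1KO basal libraries Sesn1 was 9.14 against 25.8 in WT. After immobilization it was 26.0 against 41.0, with the 2 groups overlapping, so that the libraries labelled Sesn1KO immobilized were not set apart by this gene. Myh4 and Atp2a1, the fast myosin and the calcium pump of fast fibers, stood at 49148 and 29135 in basal WT libraries of set 2. No other muscle or tissue was sequenced, so these levels cannot check the tibialis anterior label.

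On the mouse build GRCm38 the genes lie at Vegfa (chr17:46016993-46032369, minus strand), Vegfb (chr19:6982473-6987651, minus strand), Kdr (chr5:75932827-75978458, minus strand), Flt1 (chr5:147561604-147726011, minus strand), Angpt1 (chr15:42424723-42676977, minus strand), Tek (chr4:94739289-94874976, plus strand), Tie1 (chr4:118471191-118490061, minus strand), Pecam1 (chr11:106654217-106750628, minus strand), Cdh5 (chr8:104101625-104144511, plus strand) and Nos3 (chr5:24364810-24384474, plus strand). All 10 are annotated as protein coding. Their exons together span from 1.60 kb for Vegfb to 13.5 kb for Flt1, so levels of different genes are compared here only per kilobase of exon. These lengths count the exons of all annotated transcripts of a gene. Which transcripts the muscle held was not determined, so the order below holds for this measure only. Per kilobase, Vegfa (61.4 ± 5.83, SD, n = 4) and Vegfb (57.3 ± 7.79) led in basal WT muscle of set 2, and their libraries overlapped. Cdh5 (21.5 ± 1.80), Pecam1 (12.9 ± 1.00) and Tie1 (8.89 ± 1.29) followed, each below the gene before it in every library. Kdr (7.57 ± 1.199), Tek (5.93 ± 0.868) and Flt1 (5.89 ± 0.652) overlapped with their neighbours in this order. Angpt1 (3.71 ± 0.944) lay below Flt1 without overlap, and Nos3 (3.45 ± 0.134) overlapped with Angpt1. In denervated muscle Vegfb (20.5 ± 1.45) stood above Vegfa (15.8 ± 1.31) in every library, and Angpt1 (1.02 ± 0.192) had the lowest mean, overlapping with Nos3 (1.39 ± 0.285). Every immobilized group of both sets likewise had its highest mean for Vegfb and its lowest for Angpt1. The mean of Vegfb was also above that of Vegfa, with overlap, in basal Sesn1SkM-Tg, Sesn2SkM-Tg and Sesn1KO muscle.

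Promoter sequences from RefSeq (GRCm38.p6) were given for 6 of the 10 genes: Vegfa, Vegfb, Kdr, Flt1, Tek and Tie1. The windows of the 2 ligand genes and of their 2 receptor genes are printed here because the results on VEGF signalling turn on these 4 genes. Each shows 240 bases read 5′ to 3′ along the gene's own strand and ends 10 bases before the annotated start. Capitals mark the core GGAA on either strand (TTCC on the other), the letters recognised by the ETS family of factors, which is known to act at many endothelial promoters.
Vegfa, chr17:46032388-46032627, minus strand: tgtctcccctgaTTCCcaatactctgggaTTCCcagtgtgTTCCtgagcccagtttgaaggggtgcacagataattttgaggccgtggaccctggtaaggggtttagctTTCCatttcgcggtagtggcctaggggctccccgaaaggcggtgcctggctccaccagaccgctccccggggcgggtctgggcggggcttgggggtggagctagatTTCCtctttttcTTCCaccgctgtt
Vegfb, chr19:6987662-6987901, minus strand: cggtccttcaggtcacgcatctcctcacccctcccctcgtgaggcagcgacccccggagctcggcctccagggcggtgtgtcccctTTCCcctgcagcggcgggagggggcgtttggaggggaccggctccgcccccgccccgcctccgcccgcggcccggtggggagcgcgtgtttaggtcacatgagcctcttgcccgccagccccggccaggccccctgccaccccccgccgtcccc
Kdr, chr5:75978466-75978705, minus strand: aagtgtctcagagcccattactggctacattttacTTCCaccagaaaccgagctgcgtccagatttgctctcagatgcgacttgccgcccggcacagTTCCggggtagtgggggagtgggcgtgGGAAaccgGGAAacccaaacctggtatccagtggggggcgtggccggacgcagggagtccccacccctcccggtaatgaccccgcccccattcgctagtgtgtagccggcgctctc
Flt1, chr5:147726022-147726261, minus strand: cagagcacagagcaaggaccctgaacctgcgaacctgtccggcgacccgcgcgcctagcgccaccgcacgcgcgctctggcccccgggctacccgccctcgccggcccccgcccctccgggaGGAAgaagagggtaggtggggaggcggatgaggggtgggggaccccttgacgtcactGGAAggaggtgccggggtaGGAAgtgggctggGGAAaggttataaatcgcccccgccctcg
The ETS core was found 6 times in this Vegfa window, 1 time in Vegfb and 4 times each in Kdr and Flt1. It was found 2 times in the Tek and 7 times in the Tie1 window. Among all 32851 RefSeq windows of this length, 92.7% held it at least 1 time, with a mean of 2.78 matches. The longer form CCGGAA, of which GGAA is a part, stood in the Kdr window alone among the 6 genes and in 11.2% of all windows. The hypoxia response core ACGTG was absent from the 4 windows printed and present 1 time at a second Vegfa start (chr17:46025174-46025413), against 15.9% of all windows. The estrogen-related receptor core AAGGTCA was in none of these windows and in 3.94% of all. The KLF core CACCC was found 2 times in the Vegfb window and in the printed Vegfa window, and 1 time in each of the others, against 50.6% of all windows. These counts describe letters in short windows and were given no test.

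**Figure D1:**
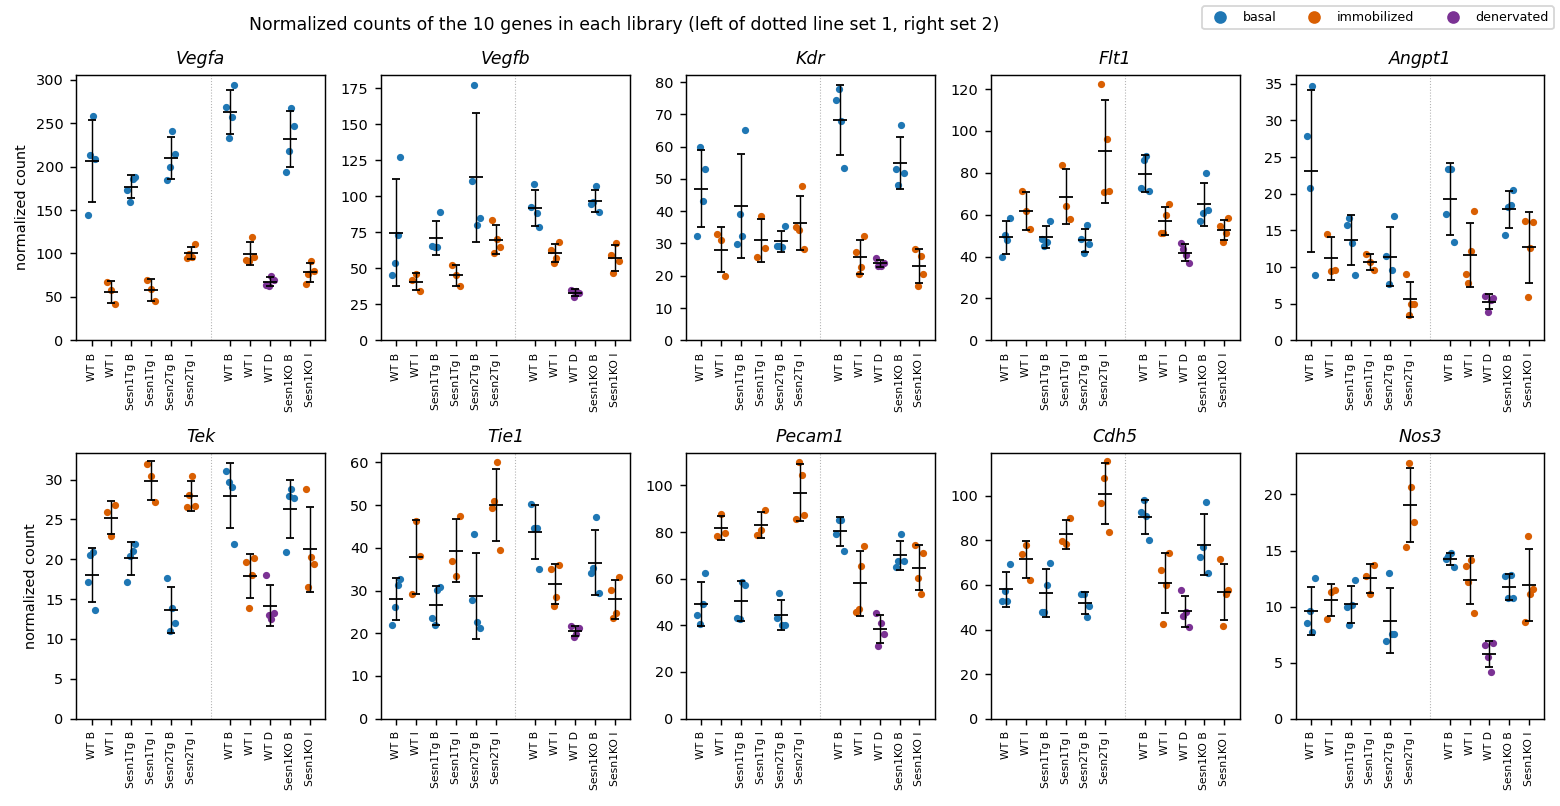
Normalized count of each of the 10 genes (vertical axis, linear from 0) in every library, by group. B is basal, I immobilized and D denervated. Points are libraries, and bars are the mean ± SD of 3 or 4 libraries. Vegfa was below its basal libraries in every disuse group, while Pecam1, Cdh5, Tek and Tie1 had higher means after immobilization in set 1 and lower means in set 2.

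Vegfa, the ligand of KDR, fell against basal muscle in all 6 disuse comparisons. In WT muscle of set 1 the 4 basal libraries read 144, 214, 259 and 209, and the 3 immobilized libraries 67.2, 58.1 and 41.4. Every immobilized library was below every basal library. The mean was 206 ± 47.1 (SD, n = 4) at rest and 55.6 ± 13.1 (n = 3) after immobilization (log2 fold change -1.87, SE 0.18, adjusted p = 1.52e-06). In set 2 the basal WT libraries read 269, 234, 257 and 293, the immobilized 92.0, 91.4, 119 and 95.4 and the denervated 64.2, 62.1, 74.5 and 69.7. Denervated libraries were the lowest, all below the immobilized ones, and these all below the basal ones. The fall against basal was -1.40 after immobilization (SE 0.12, adjusted p = 2.36e-08) and -1.94 after denervation (SE 0.12, adjusted p = 1.76e-11) on the log2 scale.

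The gene fell in each sestrin genotype as well. In Sesn1SkM-Tg muscle it read 173, 159, 186 and 188 at rest and 69.4, 59.0 and 44.8 after immobilization (log2 fold change -1.62, SE 0.18, adjusted p = 4.93e-06). In Sesn2SkM-Tg muscle it read 185, 199.7, 241 and 215 at rest and 95.2, 99.6, 96.0 and 111 after immobilization (log2 fold change -1.05, SE 0.17, adjusted p = 7.99e-05). In Sesn1KO muscle it read 194, 218, 268 and 247 at rest and 65.0, 76.4, 91.7 and 79.5 after immobilization (log2 fold change -1.56, SE 0.12, adjusted p = 3.05e-09). In none of these genotypes did an immobilized library reach a basal one. The smallest of the 6 falls was that of Sesn2SkM-Tg, where the immobilized mean stood at 0.478 of the basal mean, against 0.269 in WT of the same set.

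Vegfb, whose product binds FLT1 but not KDR, had a smaller log2 fold change than Vegfa in each of the 6 disuse comparisons. In set 2 the basal WT libraries read 92.4, 109, 88.1 and 78.6, the immobilized 62.9, 54.0, 57.2 and 68.4 and the denervated 35.1, 29.8, 34.2 and 32.7. The 3 groups did not overlap, and the falls against basal were -0.59 (SE 0.11, adjusted p = 0.000345) and -1.45 (SE 0.11, adjusted p = 7.97e-10). In Sesn1KO muscle the gene went from 96.8 ± 7.43 to 57.2 ± 8.82 (log2 fold change -0.76, SE 0.11, adjusted p = 1.78e-05). In set 1 basal levels were spread widely, from 45.6 to 127 in WT. The WT libraries overlapped after immobilization, when they read 41.6, 46.2 and 34.3, and the call (log2 fold change -0.76, SE 0.27, adjusted p = 0.0415) was lost on leaving out basal replicate 3 or 4 or any of the 3 immobilized libraries, with -0.76 shrinking to -0.47 without basal replicate 4. In Sesn1SkM-Tg (log2 fold change -0.64, adjusted p = 0.0739) and Sesn2SkM-Tg (log2 fold change -0.62, adjusted p = 0.0675) it was not called, although in Sesn2SkM-Tg it was called without basal replicate 3 (-0.76, adjusted p = 0.0415).

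The ratio of Vegfa to Vegfb, taken within each library so that library scaling drops out, had a lower mean after immobilization in WT of both sets. In set 2 it was 2.93 ± 0.65 (SD, n = 4) in basal WT, 1.66 ± 0.31 in immobilized and 2.06 ± 0.16 in denervated libraries. In set 1 it was 3.09 ± 1.02 (n = 4) in basal and 1.36 ± 0.22 (n = 3) in immobilized WT libraries. Over all genotypes of set 1, basal libraries ranged from 1.13 to 4.00 and immobilized ones from 1.14 to 1.72, so the ranges overlapped, and no test was made of the ratio.

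**Figure D2:**
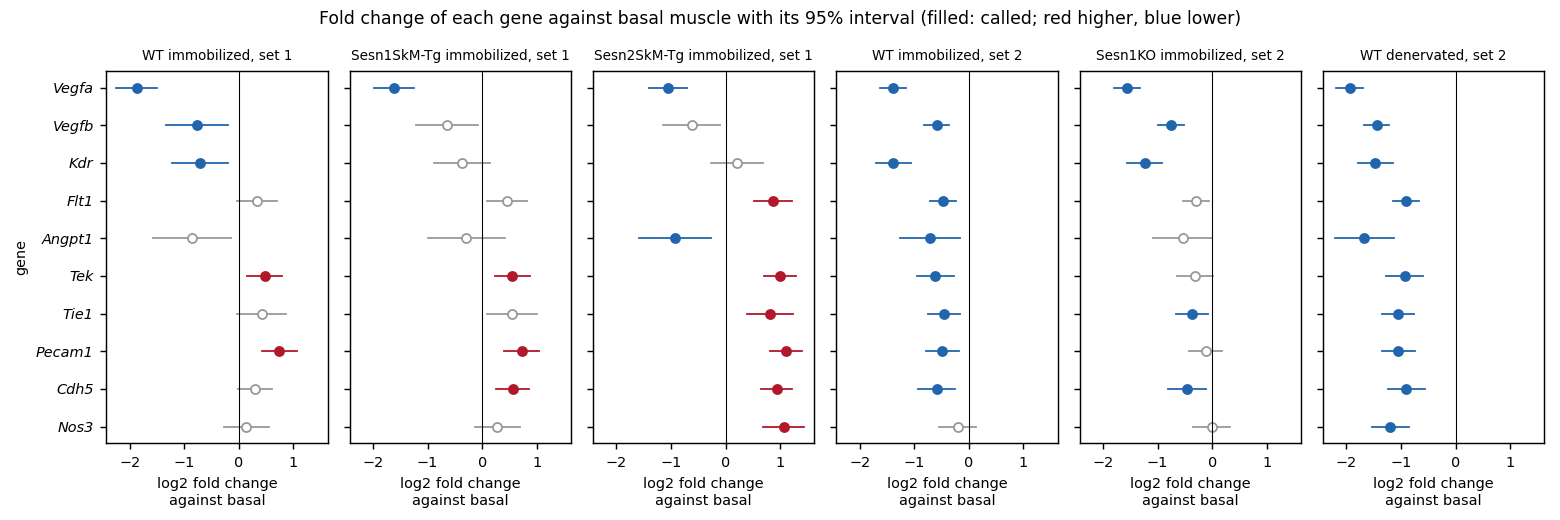
Log2 fold change of each gene against the basal group of the same genotype and set (horizontal axis), with its 95% interval as a bar. Filled points were called, red higher and blue lower, and open grey points were not. Vegfa was called lower in all 6 comparisons, from -1.05 to -1.94, and denervation lowered all 10 genes.

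Kdr, the main signalling receptor for VEGF-A, fell in set 2 in both WT and Sesn1KO muscle. It read 74.5, 77.8, 67.8 and 53.4 in basal WT of set 2, 27.3, 20.5, 22.6 and 32.4 after immobilization and 25.4, 23.1, 23.0 and 23.9 after denervation. Both disuse groups lay below every basal library and overlapped with each other (log2 fold change -1.38, SE 0.16, adjusted p = 1.09e-06 for immobilization and log2 fold change -1.47, SE 0.16, adjusted p = 8.23e-08 for denervation). In Sesn1KO muscle it went from 54.9 ± 8.08 to 23.0 ± 5.25, without overlap (log2 fold change -1.24, SE 0.16, adjusted p = 2.68e-06). In set 1 the WT basal libraries read 32.2, 59.8, 43.1 and 53.0 and the immobilized 32.95, 31.2 and 20.03. These overlapped, and the call (log2 fold change -0.72, SE 0.25, adjusted p = 0.0326) was lost without basal replicate 2 or 4 or immobilized replicate 3 (-0.50 without the last). Kdr was not called in Sesn1SkM-Tg (log2 fold change -0.37, adjusted p = 0.258) or Sesn2SkM-Tg (log2 fold change 0.22, adjusted p = 0.507).

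Flt1, the decoy-like receptor, fell in WT of set 2, with a smaller log2 fold change than Kdr. The basal WT libraries read 72.6, 86.0, 88.1 and 71.2, the immobilized 51.2, 51.3, 60.1 and 65.1 and the denervated 46.5, 43.6, 40.9 and 36.7. No immobilized library reached a basal one (log2 fold change -0.48, SE 0.11, adjusted p = 0.00273), and the denervated libraries were lower still (log2 fold change -0.91, SE 0.11, adjusted p = 8.89e-07 against basal). In Sesn1KO muscle the fall missed the threshold (log2 fold change -0.29, adjusted p = 0.0518), and it was called without basal replicate 1 or immobilized replicate 4. In set 1 its 3 estimates were above 0. It rose in Sesn2SkM-Tg muscle from 48.1, 41.8, 55.0 and 45.9 to 123, 70.8, 96.2 and 71.3, without overlap (log2 fold change 0.87, SE 0.17, adjusted p = 0.000482). The differences in WT (log2 fold change 0.33, adjusted p = 0.173) and Sesn1SkM-Tg (log2 fold change 0.46, adjusted p = 0.0542) missed the threshold, the latter being called without basal replicate 4 (adjusted p = 0.0454).

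The ratio of Flt1 to Kdr within a library was higher under disuse in both sets. It ranged from 0.843 to 1.91 over the 12 basal libraries of set 1 and from 1.67 to 3.49 over the 10 immobilized ones. In set 2 it ranged from 0.974 to 1.33 over 8 basal libraries, from 1.88 to 2.85 over 8 immobilized and from 1.54 to 1.89 over 4 denervated ones. Within WT of set 1 the means were 1.07 ± 0.17 (SD, n = 4) and 2.26 ± 0.34 (n = 3), and within WT of set 2 1.18 ± 0.17 and 2.26 ± 0.38 (n = 4 each). The basal and disuse libraries of a genotype did not overlap in any genotype. The ratio was singled out after its values were seen and was given no test.

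**Figure D3:**
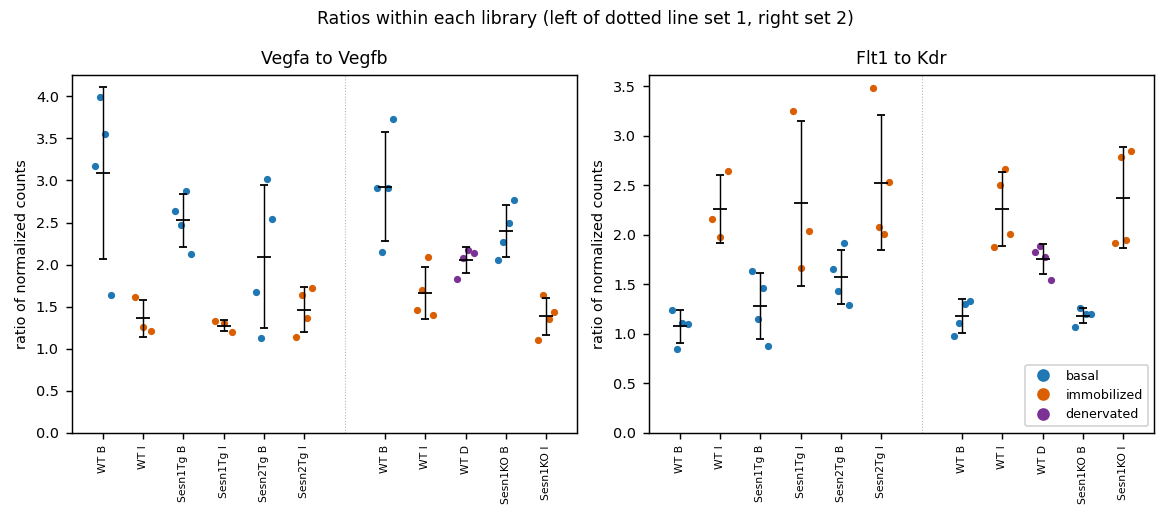
Ratio of normalized counts within each library (vertical axis, linear from 0) for Vegfa to Vegfb and for Flt1 to Kdr, by group. B is basal, I immobilized and D denervated, points are libraries, and bars are the mean ± SD of 3 or 4 libraries. The Flt1 to Kdr ratio of disuse libraries lay above that of basal libraries of the same genotype in each set.

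Angpt1, the angiopoietin ligand, fell after denervation from 17.2, 23.3, 23.4 and 13.4 to 5.98, 3.82, 5.55 and 5.81 (log2 fold change -1.67, SE 0.26, adjusted p = 1.35e-05), and all 4 denervated libraries were under all basal ones. After immobilization in WT of set 2 it read 8.99, 7.79, 12.3 and 17.6, overlapping with basal, and its call (log2 fold change -0.71, SE 0.26, adjusted p = 0.0394) was lost when any of basal replicates 1 to 3 or immobilized replicates 1 to 3 was left out. In Sesn2SkM-Tg it read 11.5, 7.72, 9.58 and 16.9 at rest and 9.07, 3.45, 4.99 and 4.93 after immobilization, and was called lower (log2 fold change -0.92, SE 0.32, adjusted p = 0.03), a call lost without basal replicate 1 or 4 or without immobilized replicate 2, 3 or 4. This call was also lost with every library scaled to the same sum (-0.66, adjusted p = 0.127). In WT of set 1 the basal libraries read 27.9, 20.8, 34.7 and 8.95, with replicate 4 far below the others. The fall there (log2 fold change -0.86, adjusted p = 0.0615) was called without that library (-1.24, adjusted p = 0.00376) or without immobilized replicate 1 (-1.05, adjusted p = 0.0474). Angpt1 was not called in Sesn1SkM-Tg (log2 fold change -0.30, adjusted p = 0.524). Nor was it called in Sesn1KO, where it went from 17.9 ± 2.56 to 12.7 ± 4.87 with overlap.

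Tek, the angiopoietin receptor, rose in set 1. In WT it went from 17.1, 20.5, 20.9 and 13.6 to 26.0, 22.9 and 26.8, without overlap (log2 fold change 0.48, SE 0.15, adjusted p = 0.0244), a call lost without basal replicate 4 or immobilized replicate 1 or 3. It rose in Sesn1SkM-Tg from 20.1 ± 2.08 to 29.9 ± 2.41 (log2 fold change 0.55, SE 0.15, adjusted p = 0.00902) and in Sesn2SkM-Tg from 13.6 ± 2.90 to 27.9 ± 1.83 (log2 fold change 1.00, SE 0.14, adjusted p = 2.69e-05), again without overlap. It fell instead in WT of set 2, from 31.0, 29.8, 29.1 and 21.9 to 19.6, 13.9, 18.02 and 20.1 after immobilization (log2 fold change -0.62, SE 0.16, adjusted p = 0.00554) and to 18.01, 13.0, 12.5 and 13.2 after denervation (log2 fold change -0.93, SE 0.16, adjusted p = 4.83e-05). No WT disuse library of that set reached a basal WT one. In Sesn1KO its difference was not called (log2 fold change -0.32, adjusted p = 0.134), except without immobilized replicate 1, where it was lower (-0.47, adjusted p = 0.0235).

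Tie1, the partner receptor, was called higher after immobilization in Sesn2SkM-Tg (log2 fold change 0.82, SE 0.20, adjusted p = 0.00411) and in neither WT (log2 fold change 0.42, adjusted p = 0.158) nor Sesn1SkM-Tg (log2 fold change 0.55, adjusted p = 0.0558) of set 1. In Sesn1SkM-Tg it was called higher with quantile normalization (0.67, adjusted p = 0.0276) and with only the compared groups fitted (adjusted p = 0.0286). With every library scaled to the same sum it was called higher in Sesn1SkM-Tg (0.85, adjusted p = 0.00364) and in WT of set 1 (0.75, adjusted p = 0.00942). In WT of set 2 it read 50.4, 44.8, 44.6 and 35.0 at rest, 35.0, 26.5, 28.5 and 35.9 after immobilization and 21.6, 19.2, 19.8 and 21.2 after denervation. Only the denervated libraries stood clear of the basal ones (log2 fold change -1.05, SE 0.14, adjusted p = 2.27e-06). The call after immobilization (log2 fold change -0.46, SE 0.14, adjusted p = 0.0155) was lost without basal replicate 1 or immobilized replicate 2. That in Sesn1KO (log2 fold change -0.37, adjusted p = 0.0454) was lost on leaving out any of basal replicates 1 to 3 or immobilized replicate 2 or 3.

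Pecam1, an adhesion molecule of endothelial contacts, was called higher after immobilization in all 3 genotypes of set 1 and lower in WT of set 2. Pecam1 in WT of set 1 read 44.5, 40.7, 49.2 and 62.3 at rest and 78.3, 87.8 and 79.4 after immobilization. Every immobilized library was above every basal one (log2 fold change 0.74, SE 0.15, adjusted p = 0.00144). It rose also in Sesn1SkM-Tg, from 50.3 ± 8.61 to 83.0 ± 5.61 (log2 fold change 0.72, SE 0.15, adjusted p = 0.00131), and in Sesn2SkM-Tg, from 44.2 ± 6.45 to 96.8 ± 12.3 (log2 fold change 1.11, SE 0.14, adjusted p = 8.41e-06). In WT of set 2 it read 79.3, 85.2, 85.0 and 71.9 at rest, 45.9, 47.0, 65.5 and 74.0 after immobilization and 45.5, 31.3, 41.0 and 36.4 after denervation. The immobilized libraries overlapped with the basal ones, and the call (log2 fold change -0.49, SE 0.14, adjusted p = 0.0116) was lost without immobilized replicate 1 (adjusted p = 0.0517). The denervated libraries lay below all others (log2 fold change -1.05, SE 0.14, adjusted p = 2.57e-06). In Sesn1KO muscle Pecam1 was not called (log2 fold change -0.12, adjusted p = 0.552).

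Cdh5, the cadherin of endothelial junctions, rose after immobilization in Sesn1SkM-Tg, from 47.8, 48.0, 59.9 and 69.9 to 79.8, 78.2 and 90.1 (log2 fold change 0.56, SE 0.15, adjusted p = 0.00612), and in Sesn2SkM-Tg, from 55.8, 55.9, 45.6 and 50.6 to 96.6, 108, 116 and 84.0 (log2 fold change 0.94, SE 0.14, adjusted p = 3.24e-05). Neither pair of groups overlapped. The WT difference of set 1 was not called (log2 fold change 0.30, adjusted p = 0.134). WT muscle of set 2 showed a fall of Cdh5, from 92.8, 98.3, 90.9 and 80.2 to 66.5, 42.4, 60.1 and 74.2 after immobilization (log2 fold change -0.59, SE 0.16, adjusted p = 0.00797) and to 57.8, 46.1, 47.9 and 41.3 after denervation (log2 fold change -0.90, SE 0.16, adjusted p = 8.5e-05). In Sesn1KO the fall (log2 fold change -0.46, adjusted p = 0.0313) was lost without basal replicate 2 or 3 or immobilized replicate 2.

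Nos3, whose product makes the vasodilator nitric oxide, was called after immobilization in Sesn2SkM-Tg muscle and, in the main fit, in no other genotype. It read 14.2, 14.5, 14.8 and 13.5 in basal WT of set 2 and 13.6, 12.2, 14.2 and 9.44 after immobilization, and the groups overlapped (log2 fold change -0.21, adjusted p = 0.352). After denervation it read 6.53, 5.51, 4.17 and 6.74, below every basal and every immobilized library (log2 fold change -1.195, SE 0.16, adjusted p = 2.32e-06 against basal and log2 fold change -0.99, SE 0.16, adjusted p = 5.37e-05 against immobilized). It rose in Sesn2SkM-Tg from 6.89, 13.0, 7.59 and 7.52 to 15.3, 22.8, 20.7 and 17.5 (log2 fold change 1.07, SE 0.18, adjusted p = 0.000169). It was not called in WT (log2 fold change 0.14, adjusted p = 0.623) or Sesn1SkM-Tg (log2 fold change 0.28, adjusted p = 0.284) of set 1, nor in Sesn1KO (log2 fold change -0.01, adjusted p = 0.963). With every library scaled to the same sum it was called higher in Sesn1SkM-Tg (0.56, adjusted p = 0.0249).

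Counted over the 10 genes, denervation lowered 10, where 55.5% of all genes tested were called in either direction. Immobilization of WT in set 2 lowered 9 and raised none (all genes, 33.9%). In Sesn1KO it lowered 5, namely Vegfa, Vegfb, Kdr, Cdh5 and Tie1 (all genes, 37.1%). In WT of set 1 it lowered Vegfa, Vegfb and Kdr and raised Pecam1 and Tek (all genes, 29.3%). In Sesn1SkM-Tg it lowered Vegfa and raised Pecam1, Cdh5 and Tek (all genes, 34.7%). In Sesn2SkM-Tg it lowered Vegfa and Angpt1 and raised Flt1, Pecam1, Cdh5, Tek, Tie1 and Nos3 (all genes, 30.7%). Denervated muscle set against immobilized muscle of the same set had 7 of the 10 lower (all genes, 38.9%): Vegfa, Vegfb, Flt1, Pecam1, Tie1, Angpt1 and Nos3. Kdr (log2 fold change -0.08, adjusted p = 0.7), Cdh5 (log2 fold change -0.31, adjusted p = 0.143) and Tek (log2 fold change -0.32, adjusted p = 0.125) were not called there, and Cdh5 and Tek were called lower without immobilized replicate 2. With every library scaled to the same sum, the number called went from 7 to 3 in this last comparison and from 5 to 3 in Sesn1KO. It went from 9 to 6 in immobilized WT of set 2, where Pecam1, Tie1 and Angpt1 were lost, and from 4 to 7 in Sesn1SkM-Tg. In WT of set 1 it went from 5 to 2 when only the compared groups were fitted. These libraries are whole muscle, in which fewer endothelial cells and less RNA per endothelial cell cannot be told apart.

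Whether the WT response itself differed between the sets was tested over all 42 libraries, a comparison added after seeing the data. The immobilization effect was lower in set 2 than in set 1 for 5 of the 10 genes, against 6.2% of all genes in either direction. The difference of the 2 log2 fold changes was -1.23 for Pecam1 (SE 0.21, adjusted p = 0.000951), -1.09 for Tek (adjusted p = 0.00325), -0.89 for Cdh5 (adjusted p = 0.0152) and -0.81 for Flt1 (adjusted p = 0.0184). For Tie1 it was -0.88 (adjusted p = 0.0401), a call lost in 9 of the 15 fits that left out 1 library. Vegfa (0.47, 95% interval 0.04 to 0.91), Vegfb (0.17, -0.44 to 0.78), Kdr (-0.67, -1.27 to -0.06), Angpt1 (0.15, -0.76 to 1.06) and Nos3 (-0.35, -0.86 to 0.17) were not called. Sesn1 also went different ways in WT of the 2 sets, at 18.5 and 13.6 (basal and immobilized) in set 1 and 25.8 and 41.0 in set 2. The sets share no library, and the labels give only a set number, so whatever changed between them cannot be told apart.

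At rest no sestrin genotype had any of the 10 genes called against WT. In basal muscle limma called none of the 10 in Sesn1SkM-Tg against WT (all genes called, 0.0292%) and none in Sesn1KO against WT (all genes called, 0.147%). At an unadjusted p under 0.05 there were 0 and 1 of the 10, where all genes gave 3.63% and 4.64%. It called none in Sesn2SkM-Tg against WT either (all genes called, 2.5%), with 4 of the 10 at an unadjusted p under 0.05, where all genes gave 15.6%. Without WT basal replicate 4, whose Vegfb was the highest and whose Angpt1 was the lowest of its group, 3 were called in the last comparison: Vegfb (0.92, adjusted p = 0.0149) higher, and Tek (-0.50, adjusted p = 0.0293) and Angpt1 (-1.24, adjusted p = 0.00914) lower.

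Among immobilized muscles 2 genes were called, both higher in Sesn2SkM-Tg than in WT (all genes, 2.94%). Vegfa read 95.2, 99.6, 96.0 and 111 in Sesn2SkM-Tg and 67.2, 58.1 and 41.4 in WT, with no overlap (log2 fold change 0.87, SE 0.18, adjusted p = 0.0149). The call was lost without WT immobilized replicate 3, the lowest library (0.67, adjusted p = 0.0990). Nos3 read 15.3, 22.8, 20.7 and 17.5 against 8.92, 11.3 and 11.5, also without overlap (log2 fold change 0.79, SE 0.20, adjusted p = 0.0332), and its call was lost without any 1 of the 3 WT libraries or Sesn2SkM-Tg replicate 2 or 3. Of 12 macrophage and leukocyte markers 3 were lower in the same comparison, Emr1 (log2 fold change -1.49, adjusted p = 0.0227), Csf1r (log2 fold change -1.18, adjusted p = 0.0474) and C1qb (log2 fold change -1.35, adjusted p = 0.0328), and their part in it was not tested. No gene of the 10 was called by limma in immobilized Sesn1SkM-Tg (all genes called, 0.0073%) or immobilized Sesn1KO muscle against WT (all genes called, 0.947%). At an unadjusted p under 0.05 there were 0 and 1, where all genes gave 3.04% and 14.1%.

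The tests of the difference in the immobilization effect itself called none of the 10 genes. For Sesn2SkM-Tg against WT the 10 differences included 0.82 for Vegfa (95% interval 0.31 to 1.33, adjusted p = 0.345), 0.93 for Kdr (adjusted p = 0.513) and 0.93 for Nos3 (adjusted p = 0.309), and limma called 0.0073% of all genes. At an unadjusted p under 0.05 there were 6 of the 10, where all genes gave 7.35%. For Sesn1SkM-Tg limma called 0% of all genes, 0 of the 10 had an unadjusted p under 0.05 (all genes, 2.93%), and Vegfa was at 0.25 (-0.28 to 0.78). For Sesn1KO it called 0.022% of all genes, 0 of the 10 had an unadjusted p under 0.05 (all genes, 7.98%), and Vegfa was at -0.16 (-0.50 to 0.18). The transgenic lines and WT share the basal and immobilized WT libraries, so these comparisons are not independent of each other.

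The wider VEGF and angiopoietin pathway was read from 40 further genes, chosen by role. Denervation lowered 24 of them and raised 8, with a median log2 fold change of -0.71 against -0.03 over all genes, of which 55.5% were called. With equal library sums 15 were lower and 12 higher (median -0.33). Thbs1, an inhibitor of vessel growth, rose from 2.87 to 35.1 (log2 fold change 3.02, SE 0.53, adjusted p = 5.41e-05), and Egln3, a prolyl hydroxylase that marks hypoxia-inducible factors for breakdown, from 17.4 to 113 (log2 fold change 2.64, SE 0.17, adjusted p = 6.23e-11). Ppargc1a, which encodes PGC-1α, fell from 46.9 to 10.8 (log2 fold change -2.04, SE 0.18, adjusted p = 4.54e-09), and Esrra, which encodes ERRα, from 112 to 33.6 (log2 fold change -1.70, SE 0.10, adjusted p = 1.41e-11). In WT immobilization of set 1 the counts were 5 higher and 3 lower (median 0.18; all genes called, 29.3%), and in set 2 5 higher and 12 lower (median -0.28; all genes called, 33.9%). With equal sums they were 14 higher and 2 lower in set 1 (median 0.44) and 5 higher and 8 lower in set 2 (median -0.17). Ppargc1a (log2 fold change -1.11, adjusted p = 0.0178) and Esrra (log2 fold change -1.09, adjusted p = 0.00272) had the largest falls in set 1. Both also fell in set 2 (log2 fold change -0.59, adjusted p = 0.0132 and log2 fold change -0.60, adjusted p = 9.18e-05), where they were named after their values were seen.

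Among the other pathway genes, Angptl4, a lipase inhibitor induced by fasting and hypoxia, rose most in both sets, from 3.13 to 16.1 in set 1 (log2 fold change 2.00, SE 0.47, adjusted p = 0.00338) and from 0.801 to 9.63 in set 2 (log2 fold change 2.53, SE 0.30, adjusted p = 1.66e-06). Figf, the table's name for Vegfd, rose in set 1 (log2 fold change 0.93, adjusted p = 0.00324), and Thbs1 in set 2 (log2 fold change 1.41, adjusted p = 0.0438). In set 2 the largest falls were those of Aplnr, the apelin receptor (log2 fold change -0.97, adjusted p = 0.00321), and Nrp1, a coreceptor of VEGF-A (log2 fold change -0.85, adjusted p = 0.000153), which went from 62.4 to 34.0. Immobilization raised 11 and lowered 3 of the 40 in Sesn1SkM-Tg (median 0.35; all genes called, 34.7%). It raised 19 and lowered 2 in Sesn2SkM-Tg (median 0.44; all genes called, 30.7%), and raised 6 and lowered 10 in Sesn1KO (median -0.32; all genes called, 37.1%). The numbers called in Sesn1SkM-Tg and Sesn1KO were near the share over all genes. With equal sums these were 20 and 2, 25 and 2, and 7 and 9. In immobilized Sesn2SkM-Tg against WT muscle 5 of the 40 were higher and none lower (all genes called, 2.94%). Of these only Epas1, the hypoxia-inducible factor subunit most abundant in endothelium, is named (log2 fold change 0.78, adjusted p = 0.0201). It was named after its values were seen. With equal sums 3 of the 40 were higher in this comparison.

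A list of 30 other endothelial markers was counted beside the 10 genes. In set 1 immobilization raised 12 of the 30 in WT (median 0.45), 19 in Sesn1SkM-Tg (median 0.57) and 28 in Sesn2SkM-Tg (median 0.97), and lowered none. In set 2 it lowered 16 in WT (median -0.47) and 7 in Sesn1KO (median -0.17) and raised none. Denervation lowered 28 and raised 1 (median -0.96). Of all genes, 29.3%, 34.7%, 30.7%, 33.9%, 37.1% and 55.5% were called in these 6 comparisons, in the order given. With equal library sums the numbers higher in set 1 became 25, 28 and 29, while 12 were lower in WT of set 2, 4 were lower and 2 higher in Sesn1KO, and 19 were lower and 1 higher after denervation. Over all genes the medians of these comparisons lay between -0.027 and 0.0028. Cldn5, a tight junction protein, rose from 7.60 to 23.2 in WT of set 1 (log2 fold change 1.54, SE 0.23, adjusted p = 0.000101) and fell from 14.1 to 4.83 after denervation (log2 fold change -1.39, SE 0.26, adjusted p = 0.000109). Clec14a, a lectin of the vessel lining, was the next highest in set 1 (log2 fold change 0.92, adjusted p = 0.000371). Sox18, a transcription factor of endothelium, had the largest fall both after denervation (log2 fold change -1.48, SE 0.16, adjusted p = 7.83e-08) and after immobilization in set 2 (log2 fold change -0.86, SE 0.16, adjusted p = 0.000237), where Arhgef15 followed (log2 fold change -0.84, adjusted p = 0.000338). Ece1, which encodes endothelin-converting enzyme and is not confined to endothelium, was the single marker that rose after denervation (log2 fold change 0.50, SE 0.11, adjusted p = 0.000578). Between the sets the WT effect was lower in set 2 for 20 of the 30 markers (all genes called, 6.2%).

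**Figure D4:**
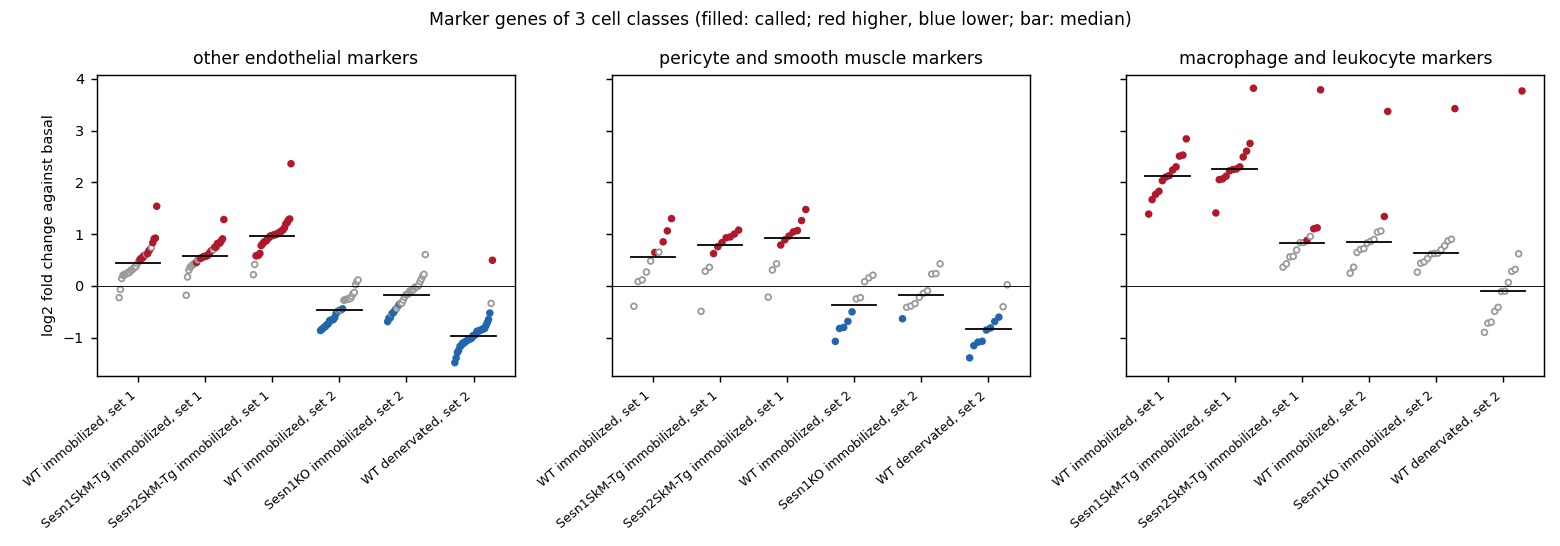
Log2 fold change against basal (vertical axis) of single marker genes of 3 cell classes, in the 6 disuse comparisons. Each point is a gene, filled where called (red higher, blue lower) and open where not, and the bar is the median. Endothelial and pericyte markers lay mostly above 0 in set 1 and below 0 in set 2, and leukocyte markers had medians above 2 in WT and Sesn1SkM-Tg of set 1.

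Markers of other cell types moved beside these genes, and their part in the results was not tested. In set 1 immobilization, limma called 29.3% of all genes in WT, 34.7% in Sesn1SkM-Tg and 30.7% in Sesn2SkM-Tg. In set 2 it called 33.9% in immobilized WT, 37.1% in immobilized Sesn1KO and 55.5% after denervation. Counts near these shares are what genes in general gave, here and for the marker lists that follow. Of 10 pericyte and smooth muscle markers, immobilization raised 4 in WT, 7 in Sesn1SkM-Tg and 7 in Sesn2SkM-Tg of set 1, and lowered 5 in WT and 1 in Sesn1KO of set 2. Denervation lowered 8, with Acta2 (log2 fold change -1.39, adjusted p = 0.000229) and Myh11 (log2 fold change -1.15, adjusted p = 3.02e-05) leading. In WT immobilization Tagln (log2 fold change 1.30, adjusted p = 0.000629) and Acta2 (log2 fold change 1.06, adjusted p = 0.00691) rose in set 1, and Myh11 (log2 fold change -1.07, adjusted p = 0.000203) and Acta2 (log2 fold change -0.82, adjusted p = 0.0264) fell in set 2. These genes encode contractile proteins of vessel walls. With equal sums the numbers higher in set 1 became 7, 9 and 9, those lower in set 2 became 2 and 1, and denervation had 5 lower and 1 higher.

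Of 12 macrophage and leukocyte markers, immobilization raised 12 in WT and 12 in Sesn1SkM-Tg of set 1, 4 in Sesn2SkM-Tg, 2 in WT of set 2 and 1 in Sesn1KO, and denervation raised 1. The shares of all genes called were 29.3%, 34.7%, 30.7%, 33.9%, 37.1% and 55.5%, in the same order. With equal sums 6 rose in Sesn2SkM-Tg and 3 in WT of set 2. Their summed level ranged from 51.2 to 75.5 in basal and 251 to 509 in immobilized WT libraries of set 1, and from 43.3 to 189 and 141 to 273 in set 2. In Sesn2SkM-Tg, where 28 of the 30 endothelial markers rose, the sum ranged from 53.7 to 76.6 at rest and from 103 to 321 after immobilization. Cd68, a lysosomal protein of macrophages, rose in WT of both sets (log2 fold change 2.84, adjusted p = 5.49e-05 and log2 fold change 3.37, adjusted p = 4.12e-08) and after denervation (log2 fold change 3.77, adjusted p = 9.56e-10). It was the only 1 of the 12 markers called after denervation, where their median log2 fold change was -0.10. After immobilization of WT, Lyz2, lysozyme of myeloid cells, rose in set 1 (log2 fold change 2.53, adjusted p = 0.00011), and Itgam, an integrin of myeloid cells, in set 2 (log2 fold change 1.34, adjusted p = 0.0433).

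For the lists of this paragraph the shares of all genes called were 29.3% (WT), 34.7% (Sesn1SkM-Tg) and 30.7% (Sesn2SkM-Tg) in set 1. In set 2 they were 33.9% (WT), 37.1% (Sesn1KO) and 55.5% (denervation). Fibroblast markers numbered 8, of which 3 rose in WT of set 1, led by Col3a1 (log2 fold change 1.41, adjusted p = 0.0115) and Pdgfra (log2 fold change 0.95, adjusted p = 0.0324), and 7 in Sesn1SkM-Tg. In Sesn1KO 2 fell, and after denervation 3 fell, led by Pi16 (log2 fold change -1.22, adjusted p = 0.000636) and Pdgfra (log2 fold change -1.01, adjusted p = 0.000607). Immobilization called none of them in Sesn2SkM-Tg or in WT of set 2. Of 6 Schwann cell markers, 4 rose in WT of set 1, among them the myelin gene Mbp (log2 fold change 1.19, adjusted p = 0.00505), 6 in Sesn1SkM-Tg and 5 in Sesn2SkM-Tg. In set 2 WT immobilization called none, 3 fell in Sesn1KO and 2 after denervation, among them Pmp22 (log2 fold change -1.55, adjusted p = 4.6e-06). Platelet markers in the table numbered 3, of which Pf4 rose in WT of set 1 (log2 fold change 2.16, adjusted p = 0.000185), 1 rose in each transgenic line, and none was called in set 2. Of 4 adipocyte markers, which had low levels throughout, 2 fell in WT of set 2, Adipoq (log2 fold change -1.14, adjusted p = 0.0221) and Lep (log2 fold change -0.84, adjusted p = 0.0348), 2 in Sesn1SkM-Tg, and all 4 after denervation, led by Adipoq (log2 fold change -1.03, adjusted p = 0.024) and Cidec (log2 fold change -0.99, adjusted p = 0.0117). Of 6 fiber markers, denervation lowered 6, led by Myh4 (log2 fold change -1.76, adjusted p = 1.33e-07) and Atp2a1 (log2 fold change -1.30, adjusted p = 6.96e-07). Immobilization lowered 3 in WT of set 1, led by Atp2a1 (log2 fold change -1.02, adjusted p = 0.00182) and Myh4 (log2 fold change -0.83, adjusted p = 0.0392), 2 in WT of set 2, Atp2a1 (log2 fold change -0.64, adjusted p = 0.00377) and Ckm (log2 fold change -0.51, adjusted p = 0.00993), 3 in Sesn1SkM-Tg, 4 in Sesn2SkM-Tg and 2 in Sesn1KO. With equal sums, the counts that moved by more than 1.5 times were those of fibroblast markers in WT of set 1 (5 higher), of Schwann cell markers in Sesn1KO (0 called), of platelet markers in Sesn1SkM-Tg and Sesn2SkM-Tg (2 and 3 higher), of adipocyte markers after denervation (2 lower) and of fiber markers in WT of set 1 (1 lower). For fibroblast markers in Sesn2SkM-Tg 1 was then higher.

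Disuse libraries had lower sums than basal libraries of the same genotype and set, except in Sesn1KO, where the groups overlapped. Scaling bore on the size of these differences. In the main fit the median log2 fold change over all genes lay between -0.027 and 0.0028 in the 6 disuse comparisons. When every library was scaled to the same sum, this median was 0.28 in WT immobilization of set 1. It was 0.25 and 0.26 in Sesn1SkM-Tg and Sesn2SkM-Tg, 0.08 in WT of set 2, 0.06 in Sesn1KO and 0.35 after denervation. Among all called genes the share called higher then went from 50.7% to 84.7% in WT of set 1, from 52.3% to 82.6% in Sesn1SkM-Tg, from 48.9% to 80.4% in Sesn2SkM-Tg, from 47.7% to 64.4% in WT of set 2, from 46.4% to 60.1% in Sesn1KO and from 50.1% to 77.2% after denervation. Against immobilized muscle the share for denervated muscle went from 52.7% to 82.3%, with a median log2 fold change of 0.26 (main fit, -0.019). For immobilized Sesn2SkM-Tg against WT it went from 56.1% to 43.2%, and for immobilized Sesn1KO against WT from 55.8% to 44.8%. Under this scaling Vegfa stayed called lower against basal in all 6 disuse comparisons, and denervation still lowered 10 of the 10 genes. No called gene of the 10 changed direction. The calls of Vegfb and Kdr in WT of set 1 were lost, and Flt1, Cdh5 and Tie1 were called higher there in addition. In Sesn1SkM-Tg, Flt1, Tie1 and Nos3 were called higher in addition. In WT immobilization of set 2 the calls of Pecam1, Tie1 and Angpt1 were lost (limma adjusted p = 0.0873, 0.0883 and 0.0886).

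The genes most like Vegfa, Vegfb and Cdh5 were found by the lower of the 2 Pearson correlations of log2 values, over the 22 libraries of set 1 and the 20 of set 2. The libraries of a set fall into basal and disuse groups, which all genes share, so these values describe a common pattern over groups. For Vegfa they were Sod2 (lower r 0.937), Pptc7 (0.935), 2310067B10Rik (0.929), Ogdh (0.929) and Taco1 (0.925). Sod2 encodes the mitochondrial superoxide dismutase, and Ogdh a citric acid cycle enzyme. For Vegfb they were Ndufa8 (0.971), Atp5o (0.964), Atp5b (0.964), 1110001J03Rik (0.962) and Atp5d (0.961). Ndufa8 encodes a subunit of respiratory complex I, and the Atp5 genes encode ATP synthase subunits. For Cdh5 they were Ehd2 (0.900), Cav1 (0.887), C130074G19Rik (0.878), Mmrn2 (0.876) and Tie1 (0.870), of which Ehd2 and Cav1 encode proteins of caveolae, and Mmrn2 and Tie1 are genes of endothelium.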

How the data were processed

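Total RNA of tibialis anterior muscle was sequenced on an Illumina HiSeq instrument. Per the submitters' processing notes and the study's methods, reads were checked with FastQC, trimmed with Cutadapt 1.7.1, mapped to the mouse transcriptome (GRCm38) and quantified with RSEM 1.2.20, and limma was used for normalization. The deposited table holds normalized counts per gene on a linear scale, a signal that the authors had normalized across libraries, so read depth is unknown and no count model was used. Mapping to a mouse transcriptome means that the human transgenes of Sesn1SkM-Tg and Sesn2SkM-Tg are counted only as far as their reads match the mouse genes.

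Values were analysed as log2(value + 1) with limma 3.58.1 in R 4.3.3 (group means, empirical Bayes with trend, Benjamini-Hochberg over all genes tested), each set apart, keeping a gene if any library of the set reached 1 (13705 genes in set 1, 13629 in set 2). Groups followed the sample titles. The 16 comparisons are those of the report, and a difference between the sets was added after seeing the data. The genes, lists and rules were chosen with earlier results of these data known. All 10 genes were described. From each list the 2 called genes that rose most and the 2 that fell most were named for denervation and for both WT immobilization comparisons, with the 5 genes most like Vegfa, Vegfb and Cdh5. Of the genes this rule names, 1 is not reported here. Simulated data were used to test the fit. Libraries were not treated as paired by replicate number. Correlations of deviations between same-numbered libraries ran from -0.45 to 0.53, and in no comparison did every pair exceed 0.1. All pairs were above 0 for immobilized against basal Sesn1SkM-Tg (0.076 to 0.154) and Sesn2SkM-Tg (0.021 to 0.131). With 3 or 4 pairs per comparison, these values cannot decide whether libraries were paired. Alternatives were no filter, a pseudocount of 0.1, quantile normalization, equal library sums, no trend, only the compared groups, a replicate block, no fold change threshold, and leaving out each library. Gene positions and exon lengths came from GENCODE M21, and promoters from RefSeq.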

Additional observations from a re-analysis of the deposited data

Results flagged for a closer look

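In 6 of 90 combinations of a gene and a group of 4 libraries, 1 library stood apart from the other 3 by Dixon's criterion (the gap to its nearest neighbour against the group's range, at the 95% level), where chance gives about 1 in 20. Vegfa was 119 in immobilized WT replicate 3 of set 2, against 91.4 to 95.4 in the others. Vegfb was 88.9 in basal Sesn1SkM-Tg replicate 4, against 64.5 to 65.8. Kdr was 35.5 in basal Sesn2SkM-Tg replicate 4, against 28.8 to 29.2. Nos3 was 13.0 in basal Sesn2SkM-Tg replicate 2, against 6.89 to 7.59. Tek was 20.9 in basal Sesn1KO replicate 1, against 27.7 to 28.8, and 18.01 in denervated replicate 1, against 12.5 to 13.2.

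The WT immobilization effect differed between the sets, by a test of the difference itself, for Flt1 (-0.81), Pecam1 (-1.23), Cdh5 (-0.89), Tek (-1.09) and Tie1 (-0.88), as set 2 minus set 1 on the log2 scale. The basal WT means of these genes were also lower in set 1 than in set 2. What differed between the sets was not tested.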

How the results depend on the processing

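The number of the 10 genes called stayed within 1.5 times the main number in most settings. It moved in WT immobilization of set 1 (5) to 2 in a fit of only the compared groups, in Sesn1SkM-Tg (4) to 7 both with equal library sums and with only the compared groups, and in Sesn1KO (5) to 3 in the same 2 settings. In denervated against immobilized muscle (7) it moved to 3 with equal sums, where Vegfa (-0.21), Flt1, Pecam1 and Tie1 were lost. The cause was not tested. Whether the replicate numbers pair the libraries could not be decided. With a replicate block the number went from 2 to 1 in immobilized Sesn2SkM-Tg against WT, as Nos3 was lost (adjusted p = 0.0589). It went from 5 to 4 in WT immobilization of set 1 (Vegfb and Kdr lost, Angpt1 gained), in Sesn1KO (Tie1 lost) and in the difference between the sets (Tie1 lost).

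With 1 library left out, the number of the 10 genes called ranged from 2 to 5 in WT immobilization of set 1, from 3 to 6 in Sesn1KO (main 5), from 0 to 3 in basal Sesn2SkM-Tg against WT (main 0) and from 0 to 2 in immobilized Sesn2SkM-Tg against WT (main 2). It stayed at 10 after denervation. Over all single gene results, no direction of a called value reversed in any setting, and of the fits that left out a library 1530 kept their side of the threshold, 48 lost a call and 12 gained one. Of the other settings 1319 kept it, 25 lost a call and 16 gained one. The read depth behind the values is unknown, so counting error could not be set beside the spread between libraries.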
